A study of Homo sapiens with 6 samples.

Results

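PARP9, DTX3L, PARP12 and PARP14 are interferon-inducible genes for ADP-ribosyltransferases and, in the case of DTX3L, for the ubiquitin ligase that PARP9 binds. They make up 4 of the 13139 genes measured here by a probe set with a single annotated symbol, and each was represented by 1 probe set. The 4 genes were chosen by the values described below, because PARP9, DTX3L and PARP12 were higher on every array of BRCA2 knockout cells than on any wild-type array. Their difference between the genotypes is therefore a description and carries no test.

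The cells were HCT116, a human colon carcinoma line. The wild type was the line as supplied by a culture collection, and the BRCA2 knockout derives from it by homologous recombination at both alleles of BRCA2, a mediator of homologous recombination repair, though which of the lines made in this way was used is not given. Both were kept in serum-supplemented McCoy's 5A, and no further treatment is given in the labels. Each genotype had 3 arrays, named technical replicates in the labels, so the spread below is that between arrays, which may be technical, and loss of BRCA2 cannot be told apart from any other difference between the lines. The title of the series points to genes related to interferon, and the comparison asks how the genes of this group differed with the genotype.

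PARP-family enzymes take ADP-ribose from NAD and attach it to proteins, either as a single unit or as long chains. PARP9 and PARP14 also carry macrodomains, which bind ADP-ribose, and PARP9 forms a stable pair with DTX3L, a ligase of the Deltex family that acts at sites of DNA damage and in interferon signalling. PARP14 is known as a coactivator of STAT6, and PARP12 is a zinc finger protein with antiviral activity. Interferon acts through Janus kinases on STAT proteins, which with IRF9 bind the interferon-stimulated response element in target promoters.

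The promoters of the members are shown first because all 4 carry the core of that element. RefSeq promoter windows of the assembly GRCh38.p14, from 250 bases before to 50 bases after a gene's start, were matched by symbol for all 4 members and searched on both strands for GAAANNGAAA, where N is any base. The PARP9 and DTX3L starts lie 38 bases apart on opposite strands. Shown are the stretch between them with the first 4 bases of DTX3L, and the 100 bases before the starts of PARP14 and PARP12. Each sequence reads 5′ to 3′ on the strand named, with motif matches in capitals.
PARP9 and DTX3L, chr3:122564301-122564341, plus strand: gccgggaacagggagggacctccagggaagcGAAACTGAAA
PARP14, chr3:122680739-122680838, plus strand: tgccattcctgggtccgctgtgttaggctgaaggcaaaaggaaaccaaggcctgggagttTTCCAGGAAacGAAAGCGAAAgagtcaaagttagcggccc
PARP12, chr7:140062952-140063051, minus strand: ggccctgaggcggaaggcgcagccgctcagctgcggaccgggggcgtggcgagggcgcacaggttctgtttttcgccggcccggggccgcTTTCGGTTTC

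PARP9 and DTX3L shared a single match, GAAACTGAAA on the plus strand. It lay 32 to 41 bases before the PARP9 start and ran across the DTX3L start, with 6 of its bases before the start and 4 from the start onward. PARP9 has another annotated start with a window of its own, which held no match. In PARP14 the match GAAAGCGAAA lay 20 to 29 bases before the start. In PARP12 the match TTTCGGTTTC, which reads as the motif on the opposite strand, ended 1 base before the start. The PARP14 window also held TTCNNNGAA, the form of the gamma-activated site bound by STAT dimers, as TTCCAGGAA, which are the first capitals of its sequence.

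Among all 35116 promoter windows of that length, 3.57% held GAAANNGAAA and 7.66% held TTCNNNGAA. Of the other PARP-family genes on the lists used here, 10 had a window, and the measured genes PARP4, PARP10 and TNKS were not among these. GAAANNGAAA was found for 0 of the 7 mono-ADP-ribosyltransferase genes and 0 of the 3 poly-ADP-ribose polymerase genes. It was found for 4.38% of all 27305 genes with a window and for 20 of 29 other interferon-stimulated genes. A match describes the letters of the window, and the binding of any factor there was not measured.

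Values are on the log2 scale of the deposited probe set summaries, where a difference of 1 is a doubling in signal. PARP9 gave 8.52, 8.01 and 8.63 on the wild-type arrays, given here and below in the order of their numbers, and 9.11, 9.56 and 9.08 on the knockout arrays. The genotypes did not overlap, and the lowest knockout array lay 0.45 above the highest wild-type array. The means were 8.39 ± 0.33 and 9.25 ± 0.27 (SD, n = 3 arrays each), a difference of 0.87 ± 0.29 (SE of the fit) or 1.82-fold. In RNA of whole cultures, a higher level in all cells and in some of them cannot be told apart.

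DTX3L gave 8.44, 8.08 and 7.94 on the wild-type arrays and 8.75, 10.02 and 8.97 on the knockout arrays. All knockout arrays were higher, and knockout array 2 stood more than a log2 unit above the others. The means were 8.16 ± 0.26 and 9.24 ± 0.68 (SD, n = 3), a difference of 1.09 ± 0.39 (SE) or 2.12-fold, the largest of the 4 members. Without knockout array 2, which had the highest median of all arrays, the difference in DTX3L was 0.70.

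PARP12 gave 8.92, 9.18 and 8.94 on the wild-type arrays and 9.25, 9.63 and 9.92 on the knockout arrays. Again every knockout array was higher, but by a gap of 0.08 between wild-type array 2 and knockout array 1, so that PARP12 stood only just inside the rule that chose it. Its means were 9.01 ± 0.14 and 9.60 ± 0.33 (SD, n = 3), and the difference was 0.59 ± 0.28 (SE). Unlike for the other members, its highest array was knockout array 3.

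PARP14 gave 7.85, 6.56 and 7.32 on the wild-type arrays and 7.41, 8.67 and 7.36 on the knockout arrays. The genotypes overlapped, with wild-type array 1 above knockout arrays 1 and 3, so PARP14 lay outside the rule of no overlap. The means of 7.24 ± 0.65 and 7.81 ± 0.74 (SD, n = 3) differed by 0.58 ± 0.48 (SE), and the medians of the genotypes by 0.09. The mean difference came to 0.15 when knockout array 2 was left out, 0.23 without wild-type array 2, 0.88 without wild-type array 1 and 0.32 with arrays weighted by their quality.

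**Figure D1:**
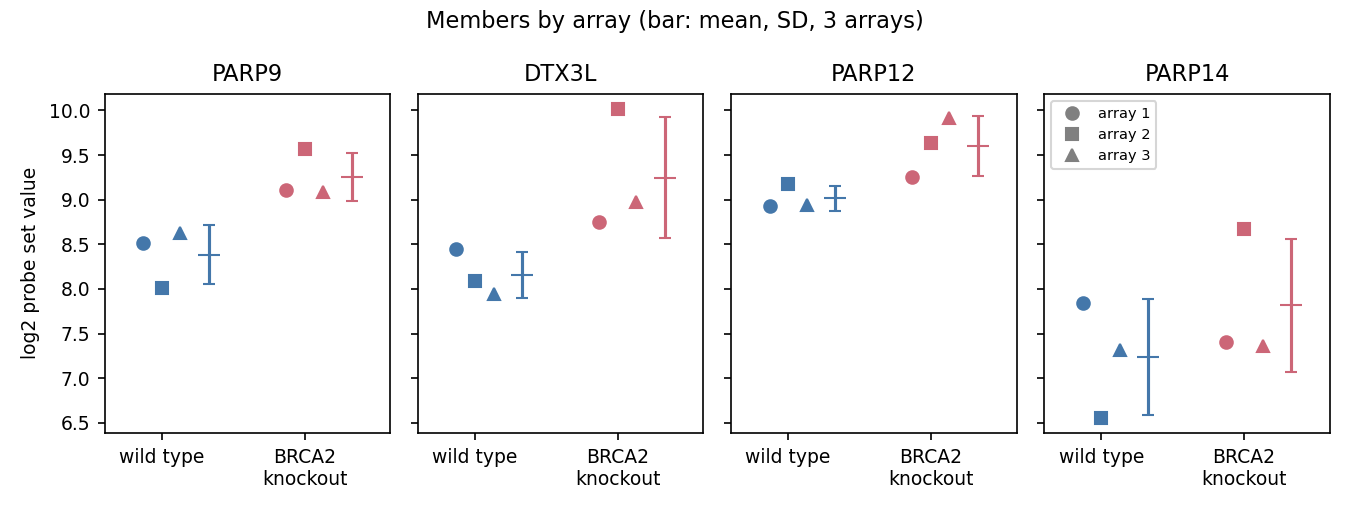
Log2 probe set values (y axis) of PARP9, DTX3L, PARP12 and PARP14 on each of the 3 wild-type and 3 BRCA2 knockout arrays, with marker shape for the array number and bars for the mean and SD. The genotypes separate for PARP9, DTX3L and PARP12, while for PARP14 wild-type array 1 (7.85) lies above knockout arrays 1 and 3 (7.41 and 7.36).

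In limma, 0 of the 4 members passed an adjusted p of 0.05, against 0.570% of all 19458 probe sets. That count is a description and not a test, as the members were chosen by this contrast. The 3 members with every knockout array higher are set beside 12.0% of all probe sets with that order, a share from which nothing is read since this order chose them. The median difference over the members was 0.73, and over all probe sets it was 0.02.

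The arrays were not on a common scale, and knockout array 2 and wild-type array 1 had the highest medians, 7.80 and 7.71 against 7.36 to 7.48 on the other arrays. Those 2 arrays also stood high for PARP14, whose value was the highest of its genotype on each. Over all probe sets they correlated with each other at 0.924. Knockout array 2 correlated at 0.876 and 0.893 with knockout arrays 1 and 3, and wild-type array 1 at 0.896 and 0.925 with wild-type arrays 2 and 3. Subtracting each array's median left the differences at 0.84 for PARP9, 1.06 for DTX3L, 0.56 for PARP12 and 0.55 for PARP14. After this step PARP9 was within 9.20 to 9.29 on the knockout arrays and within 8.18 to 8.68 on the wild-type arrays. PARP12 then had 9.35 on wild-type array 2 and 9.36 on knockout array 2, almost level. DTX3L still had its highest value, 9.75, on knockout array 2, and so did PARP14, with 8.41. The part of array scale or of a single array in these values beyond that was not tested.

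Across the 16 other fits the difference was above 0 for all 4 members. For PARP9, DTX3L and PARP12 the rule that chose them fixed this sign wherever arrays were left out or weighted. The other variance models and the block leave the difference unchanged, so this sign is no separate evidence. The difference ran from 0.61 to 0.99 for PARP9, from 0.70 to 1.34 for DTX3L, from 0.43 to 0.76 for PARP12 and from 0.15 to 0.88 for PARP14. In none of these fits did limma, or the test without moderation, call a member at an adjusted p of 0.05. No test of the members is read from this, since the same contrast chose them.

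**Figure D2:**
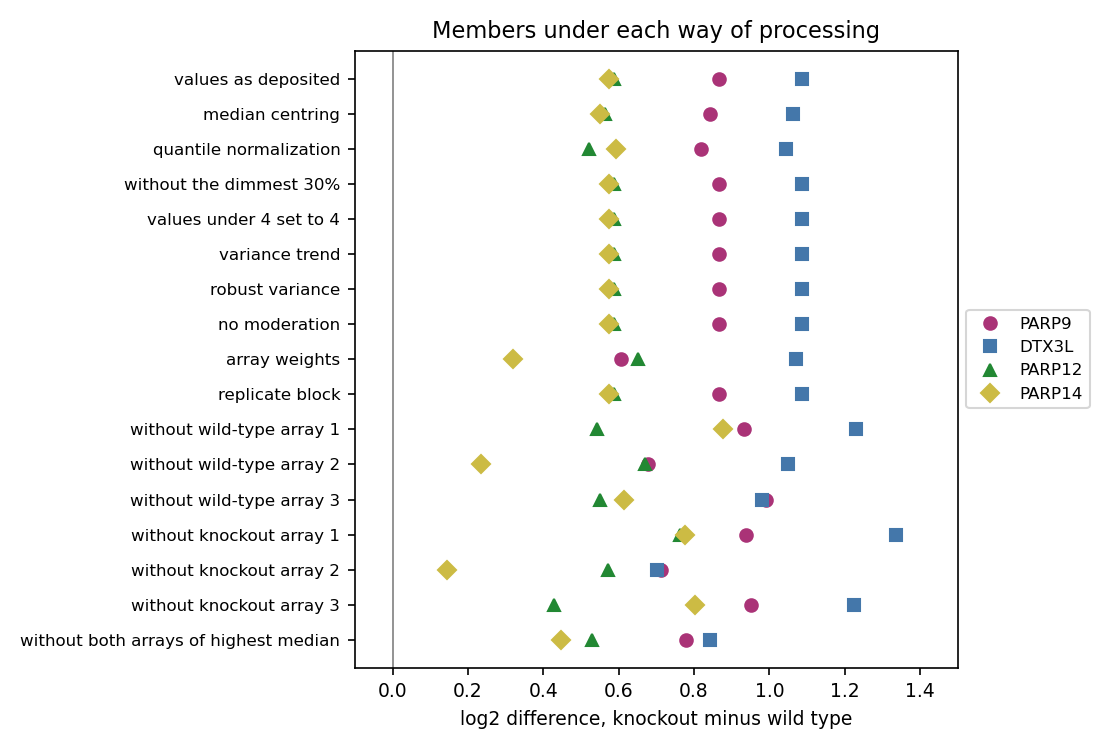
Log2 difference, knockout minus wild type (x axis), of the 4 members with the values as deposited and under each other way of processing (y axis), including each array left out in turn. All points lie above 0, which the choice of PARP9, DTX3L and PARP12 fixed for these genes wherever arrays were left out. The lowest are those of PARP14 with knockout array 2 (0.15) or wild-type array 2 (0.23) left out.

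PARP9 and DTX3L, which share the promoter stretch above, were higher by amounts that overlap within their errors. Measured from each gene's wild-type mean, DTX3L minus PARP9 was -0.14, 0.68 and 0.12 on the knockout arrays and 0.15, 0.30 and -0.46 on the wild-type arrays, so the knockout arrays fell on both sides of 0. DTX3L minus PARP14 was 0.42, 0.42 and 0.69 on the knockout arrays, but wild-type array 2 gave 0.61, within that range.

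The rest of the PARP family differed in both directions. Of 9 measured genes of the mono-ADP-ribosyltransferase list, the median difference was -0.06, with 4 genes higher and 5 lower, and 0 passed an adjusted p of 0.05 in limma (2 at an unadjusted p under 0.05, both higher, a threshold passed by 6.92% of all probe sets as higher and 5.28% as lower). Without knockout array 2 this median was -0.55, and it was above 0 without wild-type array 1 (0.27), knockout array 1 (0.20) or knockout array 3 (0.29). PARP11, which attaches single ADP-ribose units, had the largest difference of the family, 1.32 ± 0.35 (SE, adjusted p = 0.205). It gave 7.07, 6.15 and 6.56 in wild type and 7.74, 8.39 and 7.62 in knockout, without overlap. PARP10, another enzyme that adds single ADP-ribose units, was at 5.33, 5.88 and 4.98 in wild type and at 7.06, 6.00 and 6.74 in knockout, a difference of 1.20 ± 0.38 (adjusted p = 0.272). Here knockout array 2 was the lowest of its genotype, the reverse of DTX3L and PARP14. Both genes had an adjusted p under 0.05 in 1 other fit, with array weights (0.0474 for PARP11 and 0.0389 for PARP10). The adjusted p ran from 0.0474 to 0.688 over the 16 other fits of PARP11, and from 0.0389 to 0.731 over the 15 of PARP10, which the filter on the dimmest 30% removed.

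PARP6, a further mono-ADP-ribosyltransferase gene, differed by 0.43 ± 0.25 without overlap (adjusted p = 0.549). PARP4, the vault-associated family member, differed by -0.52 ± 0.28, with every knockout array below every wild-type array (adjusted p = 0.515; -0.33 without wild-type array 1), an order found for 7.70% of all probe sets. ZC3HAV1, the zinc finger antiviral protein, which belongs to the family by sequence but lacks the enzyme activity, differed by -0.84 ± 0.41 (adjusted p = 0.472). Its knockout values of 8.99, 10.32 and 9.23 overlapped the wild-type values of 10.67, 10.03 and 10.37 through knockout array 2. PARP15, which lies between DTX3L and PARP14 on chromosome 3 and encodes a macrodomain protein, had wild-type values of 4.23, 5.44 and 3.89 and knockout values of 3.58, 3.94 and 3.35. That is a difference of -0.90 ± 0.44 (adjusted p = 0.476), opposite in sign to those of DTX3L and PARP14 beside it. With values under 4, which make up 4 of its 6, set to 4, it was -0.56, and without wild-type array 2 it was -0.44. PARP3, PARP8 and PARP16 differed by 0.32, -0.06 and -0.27, each with overlap.

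All 4 poly-ADP-ribose polymerase genes were lower in the mean of the knockout arrays, with a median of -0.47, and 0 passed the adjusted or the unadjusted threshold in limma. PARP1, the main polymerase of the DNA damage response, differed by -0.48 ± 0.49 and its partner PARP2 by -0.60 ± 0.36. The tankyrase genes TNKS and TNKS2 differed by -0.35 and -0.46. Without wild-type array 1 the difference was -0.10 for PARP1, -0.01 for TNKS and -0.0001 for TNKS2. Without knockout array 2 it was -0.89 for PARP1 and -0.75 for TNKS, and without knockout array 3 it was -0.32 for PARP2. For each of the 4 genes the genotypes overlapped, and the mean over them was highest on wild-type array 1 (9.40) and then on knockout array 2 (8.83), the arrays of highest median, against 7.84 to 8.62 on the rest. The median came to -0.06 without wild-type array 1, -0.76 without wild-type array 2 and, with knockout array 2 or 1 left out, -0.73 or -0.31.

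**Figure D3:**
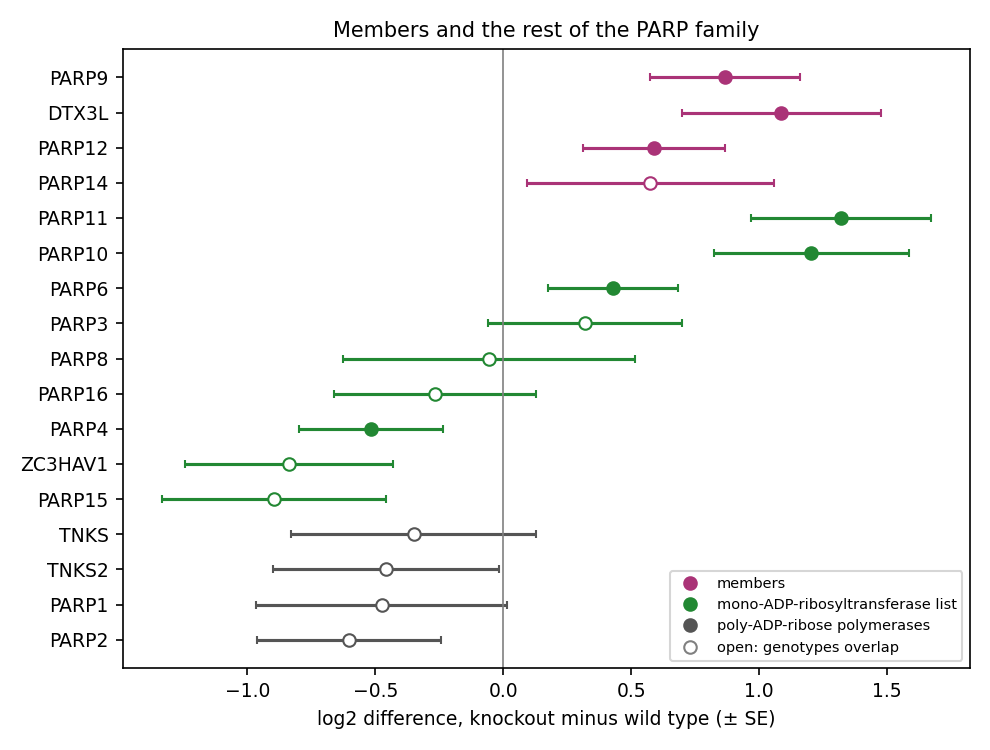
Log2 difference, knockout minus wild type, with its SE (x axis) for the 4 members and the other measured PARP-family genes (y axis), filled where the arrays of the genotypes do not overlap. PARP11 (1.32) and PARP10 (1.20) lie beyond the members on the positive side, and the 4 polymerase genes lie between -0.60 and -0.35 with overlap.

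Genes that remove or read ADP-ribose, that act with the members, or that supply NAD had 0 members past the adjusted or the unadjusted threshold in limma. Of 6 measured ADP-ribose hydrolase genes, 3 were higher and 3 lower (median 0.02). MACROD1, a macrodomain hydrolase gene, had knockout values below all wild-type values (-0.53 ± 0.26, adjusted p = 0.482). Of the other Deltex ligases, DTX1 alone was measured, at -0.11. Ubiquitin signalling genes of double-strand breaks, the setting in which the PARP9 and DTX3L pair is best known for DNA repair, were higher in 5 and lower in 7 of 12 cases (median -0.17). Among them KMT5B, a histone H4 methyltransferase gene, was without overlap at 0.66 ± 0.31 (adjusted p = 0.457; 0.44 without wild-type array 2). NAD synthesis and NAD-consuming genes were higher in 8 of 12 cases (median 0.33, or 0.16 without knockout array 3). Of these NAPRT, a gene of the nicotinic acid pathway, and NADSYN1 were higher without overlap (0.52 and 0.50). NAMPT, the gene of the salvage enzyme, was lower without overlap (-0.45, or -0.29 without knockout array 3).

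The factors that act upstream of interferon-inducible genes differed in both directions. Of 12 measured genes for Janus kinases, STATs and IRFs, 7 were higher and 5 lower, with a median of 0.46 (0.19 when wild-type array 1 was left out and 0.27 without knockout array 3), and 0 passed an adjusted p of 0.05 in limma. At an unadjusted p under 0.05, 4 were higher and 1 lower, against 6.92% and 5.28% of all probe sets. The genotypes did not overlap for 5 higher and 2 lower genes, against 12.0% and 7.70% of all probe sets.

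IRF1, a transcription factor that binds the same promoter element, gave 8.23, 7.89 and 8.07 in wild type and 9.06, 9.51 and 9.36 in knockout. Its arrays did not overlap, and the difference of 1.25 ± 0.26 (SE, adjusted p = 0.125) was the largest positive one of the list. IRF9, the DNA-binding partner of the STAT complex that forms after type I interferon, gave 8.56, 7.86 and 8.28 in wild type and 9.09, 9.27 and 9.16 in knockout (0.94 ± 0.28, adjusted p = 0.240). STAT6, the factor that PARP14 is known to assist, was at 9.21, 9.09 and 9.11 in wild type and 9.99, 10.18 and 10.19 in knockout, a difference of 0.98 ± 0.24 (adjusted p = 0.165). STAT6 had SDs of 0.07 on the wild-type and 0.11 on the knockout arrays, and IRF9 had 0.35 and 0.09. STAT6 had an adjusted p under 0.05 in 3 of the 16 other fits and IRF1 in 2, over ranges of 0.0385 to 0.705 and 0.0279 to 0.648.

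STAT3, which transmits signals of interleukin 6 and related cytokines, differed by 0.62 ± 0.24, and IRF3, which responds to nucleic acid sensing, by 0.60 ± 0.28 (adjusted p = 0.374 and 0.449), both without overlap. JAK2, a kinase of the interferon gamma receptor among others, gave 7.18, 5.60 and 6.61 in wild type and 4.60, 5.29 and 4.58 in knockout. All its knockout arrays were lower, with a difference of -1.64 ± 0.45 (adjusted p = 0.219). TYK2, a kinase of the type I interferon receptor, differed by -0.43 without overlap. JAK1 and IRF2 differed by -0.37 and -0.58, IRF5 by -0.07, IRF7 by 0.62 and IRF8 by 0.32, all with overlap. With 1 array left out JAK1 ran from -0.67 (without knockout array 2) to -0.15 (without knockout array 1), and IRF2 from -1.10 (without knockout array 2) to -0.03 (without knockout array 3). IRF7 was at 0.20 and IRF8 at 0.18 without wild-type array 1, and TYK2 at -0.25 without wild-type array 2.

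**Figure D4:**
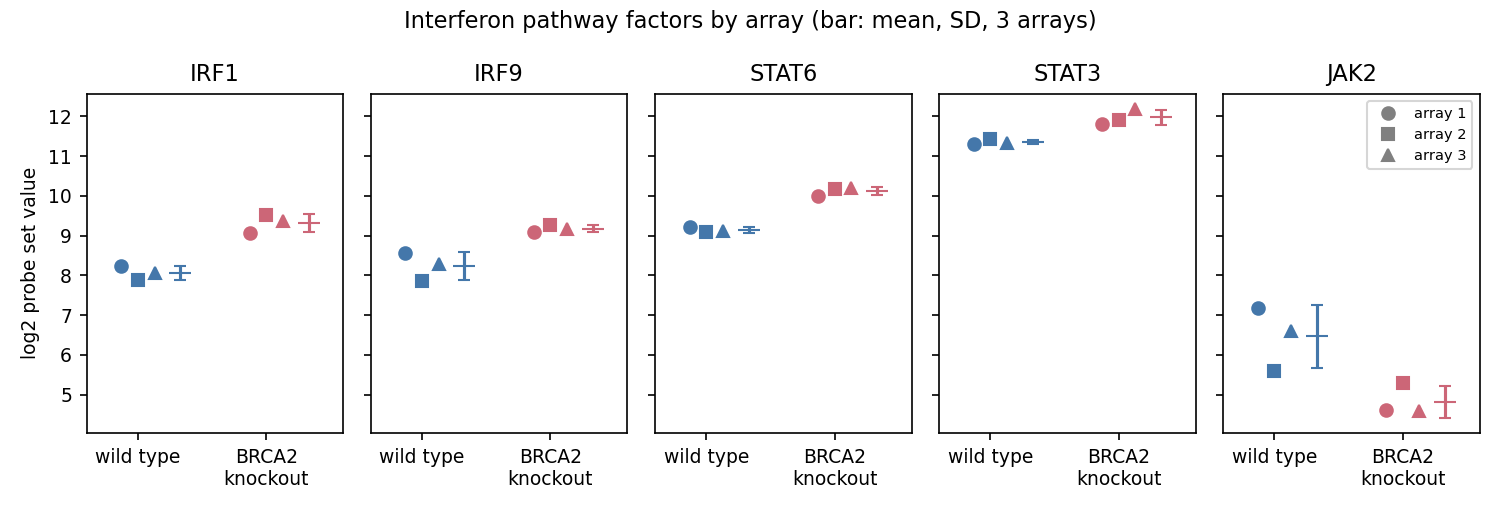
Log2 probe set values (y axis) of IRF1, IRF9, STAT6, STAT3 and JAK2 by array and genotype, drawn as in the plot of the members by array. For the first 4 genes every knockout array is higher, and for JAK2 every knockout array is lower (5.29 at most, against 5.60 at least in wild type).

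The IRF1 promoter is shown because it holds the gamma-activated form TTCNNNGAA, in capitals, which the PARP14 window shares. The 200 bases before its start read, on the minus strand:
IRF1, chr5:132490774-132490973: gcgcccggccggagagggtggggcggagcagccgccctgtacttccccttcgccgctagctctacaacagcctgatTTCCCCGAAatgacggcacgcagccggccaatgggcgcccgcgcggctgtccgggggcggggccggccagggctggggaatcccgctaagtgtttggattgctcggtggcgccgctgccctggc

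The match began 124 bases before the IRF1 start. TTCNNNGAA was in 2 of the 9 windows found for the Janus kinase, STAT and IRF genes, the other being IRF9, where TTCTGGGAA began 63 bases before the start. It was also in the windows of ZC3HAV1, PARP15 and PARP2, which were lower in the mean of the knockout arrays, in 7 of 29 windows of interferon-stimulated genes and in 9.38% of all genes with a window. GAAANNGAAA was in 0 of those 9 windows.

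Interferon ligand and receptor genes showed no common direction. Of 12 listed genes 7 were measured, and IFNE and IFNG were the only ligand genes among them. Of these 7, 3 were higher and 4 lower (median -0.16), and 0 passed either threshold. IFNG, the interferon gamma gene, had the largest difference, -1.92 ± 0.95 (adjusted p = 0.484), with overlap. Its knockout array 3 was at 0.79, against 3.86 to 5.96 on the other arrays, and the difference came to -0.82 when it was left out and to -0.80 with a floor of 4. The median of the list was 0.18 without knockout array 3. Among 8 genes that restrain interferon signalling, 5 were higher and 3 lower (median 0.10), with 0 past an adjusted p of 0.05 in limma and 1 at an unadjusted p under 0.05. PTPN1, a phosphatase gene, was higher without overlap, at 0.52 ± 0.24 (adjusted p = 0.450), and so was PIAS4, at 0.39 ± 0.24. SOCS3, a feedback inhibitor gene, was lower without overlap, at -1.14 ± 0.43 (adjusted p = 0.354).

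Other interferon-stimulated genes were mostly higher in the knockout. Of 36 such genes, 29 were higher and 7 lower, where 51.3% of all probe sets were higher, with differences from -1.53 to 3.24 and a median of 0.58. The mean over them was 6.41 to 6.62 on the wild-type arrays and 6.93 to 7.32 on the knockout arrays. Of these genes 2 passed an adjusted p of 0.05 in limma, both higher, where 0.416% of all probe sets were called higher and 0.154% lower. They were IFIT2 (1.79 ± 0.25, adjusted p = 0.0387) and IFI44 (3.24 ± 0.48, adjusted p = 0.0459). The adjusted p ran from 0.0053 to 0.420 over the 16 other fits of IFIT2, and from 0.0115 to 0.380 over the 15 of IFI44, which the filter on the dimmest 30% removed. With any 1 array left out, at most 1 gene of all 10 pathway lists was called. With values under 4 set to 4 the difference in IFI44, whose wild-type values were 1.65 to 2.09, was 1.07. The genotypes did not overlap for 14 of the 36 genes, all higher in the knockout, an order found for 12.0% of all probe sets. The list was drawn up with earlier results of these arrays known, so its direction is not independent evidence.

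The promoter motif of the members was followed through all measured genes. With only the members left out, 430 genes had GAAANNGAAA in a promoter window and 10136 had a window without it. The listed interferon-stimulated genes were thus kept in. Of the genes with the motif, 56.7% were higher in the knockout (median 0.12), against 53.4% of those without (median 0.05). The knockout arrays were all higher for 15.1% and 13.5% of them, and all lower for 5.58% and 7.22%. In limma, 4 of the 430 and 41 of the 10136 were called higher at an adjusted p under 0.05, and 0 and 17 lower. Among the 29 interferon-stimulated genes with a window, the 20 with the motif had a median difference of 0.40 and the 9 without it 0.62. IFIT2, called above, was not among the 29. Of the 20, 17 were higher and 8 without overlap, and of the 9, 6 were higher and 2 without overlap.

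Genes beside the members on their chromosomes differed in both directions. PARP9, DTX3L, PARP15 and PARP14 lie next to each other on chromosome 3. Of the 5 nearest measured genes on each side of this block, 7 were higher and 3 lower (median 0.15), and 0 passed an adjusted p of 0.05 in limma (1 at an unadjusted p under 0.05). The nearest on the PARP9 side, the importin gene KPNA1, differed by 0.08 ± 0.46, and the nearest on the PARP14 side, HSPBAP1, by 0.21 ± 0.69. CSTA, the cystatin A gene, was the only one of the 10 without overlap, at -0.85 ± 0.32 (adjusted p = 0.357). Their median had the opposite sign when wild-type array 2 (-0.22) or knockout array 2 (-0.26) was left out. Beside PARP12 on chromosome 7, 7 of 10 neighbours were higher, 2 lower and HIPK2 level within 0.005, with a median of 0.12 (-0.01 without knockout array 2) and a range of -0.27 to 0.66, and the genotypes overlapped for each of them. Of these 0 passed the adjusted or the unadjusted threshold in limma.

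**Figure D5:**
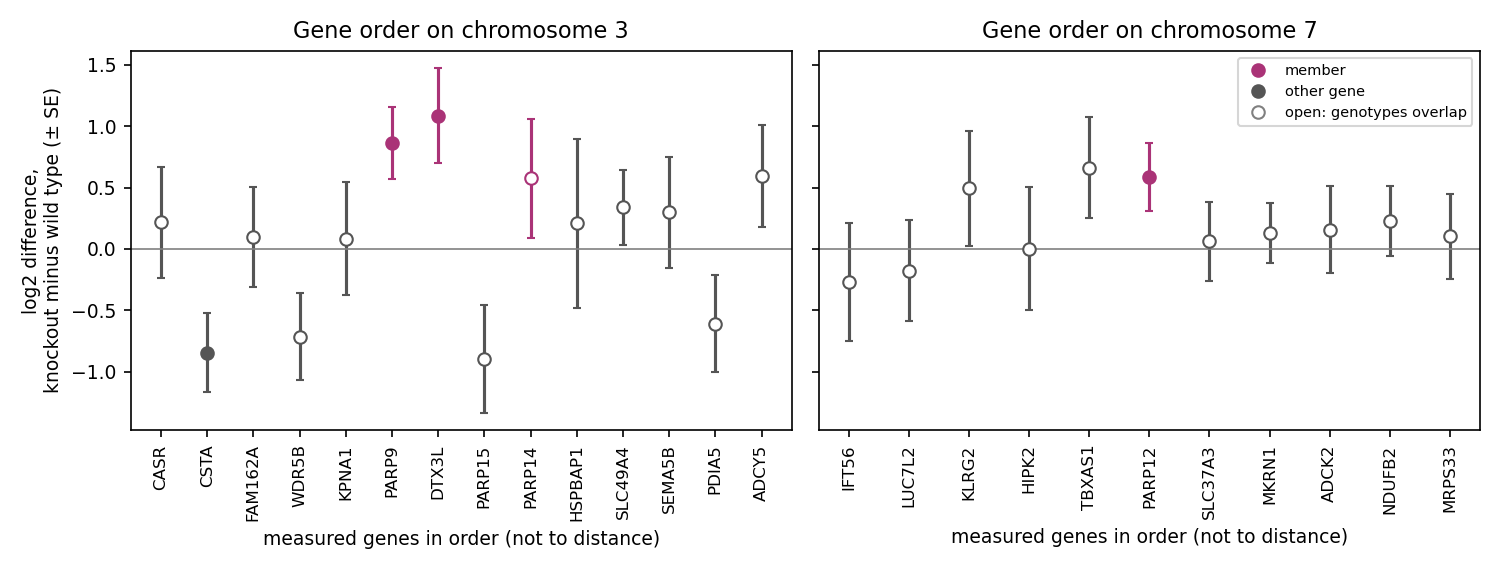
Log2 difference, knockout minus wild type, with its SE (y axis) for the measured genes in order along chromosome 3 around PARP9 to PARP14 (left) and along chromosome 7 around PARP12 (right), filled where the genotypes do not overlap. PARP9 (0.87) and DTX3L (1.09), chosen for being higher, stand above their neighbours, and PARP15 (-0.90) between DTX3L and PARP14 lies below 0. PARP14 (0.575) lies below ADCY5 (0.596), and PARP12 (0.588) below TBXAS1 (0.660).

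The genes most like the members were those with the smallest root mean square distance to the mean of the 4 members over the 6 arrays, after each gene was centred on its own mean. Among 6585 genes at or above the lowest mean level of a member, the 6 nearest were ATP8B2 (distance 0.08 on the log2 scale), a phospholipid flippase gene, DPYSL2 (0.08), CYTH3 (0.08), PARM1 (0.09), TMEM131L (0.09) and the inositol phosphate kinase gene IP6K1 (0.09). Their correlations with that mean were 0.98 to 0.99 over 6 arrays, which fall into the 2 genotypes and share array scale, and are given as a description. None of the 6 is on a list used here. DPYSL2, for example, gave 8.96, 8.74 and 8.82 in wild type and 9.19, 10.05 and 9.47 in knockout, with its peak on knockout array 2 as for DTX3L. The differences of the 6 genes were between 0.69 and 0.81.

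Markers of the cell line and of other cell types were read on the same arrays. EPCAM, which defines epithelial cells, was at 9.47 to 10.31 over the 6 arrays and the keratin gene KRT8 at 11.98 to 13.11. Wild-type means were 10.29 for CDH1, 12.00 for KRT18, 11.48 for KRT19, 7.73 for CDX2 and 6.69 for TFF3. They were 5.94 for CDX1, 5.93 for KRT20, 5.72 for CEACAM5 and 5.58 for VIL1, no higher than the markers of other cell types below. Of 11 colon epithelial markers 10 were higher in the knockout (median 0.32). The genotypes did not overlap for 5 of the 11, all higher, an order found for 12.0% of all probe sets. The mean over the 11 was 8.40 to 8.69 in wild type and 8.68 to 9.18 in knockout, with overlap. The mean log2 level of the markers of other cell types also overlapped between the genotypes. Means over 7 lymphocyte markers were 5.21 to 6.04 in wild type and 5.57 to 6.24 in knockout. Means over 6 myeloid markers were 6.13 to 6.32 and 5.90 to 6.36. For 6 fibroblast markers the means were 6.00 to 6.53 and 6.30 to 6.75, and for 6 endothelial markers 5.68 to 6.47 and 5.90 to 7.09. Among the markers of these other cell types, CD68 and COL1A1 were higher and AIF1 was lower without overlap. Of all these markers 0 passed an adjusted p of 0.05 in limma, and 2 had an unadjusted p under 0.05, the adhesion gene CDH1 (1.15) and the collagen gene COL1A1 (1.10). No level of absence was set on this log2 scale, so the values do not show whether transcripts of other cell types were present. The part of these markers in the members' values was not tested. BRCA2 itself had no probe set with its symbol alone and was not analysed here.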

How the data were processed

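RNA of HCT116 cells was labelled with biotin after depletion of ribosomal RNA and hybridised to whole-transcript arrays, 3 per genotype, per the labels' protocols. The deposited values are log2 probe set summaries, and RMA, R 2.11.1 and hg18 are named in the submitters' processing notes. The scale was read from the values, and the steps run and any filter are not given in the sources used here. All 6 columns were used.

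Of 19458 probe sets, 13301 had 1 symbol, 2044 several and 4113 none in the platform annotation, and symbols were updated through 13280 identifiers found in RefSeq (GRCh38.p14). A gene was its probe set of highest mean. One limma model (version 3.58.1, lmFit and eBayes, R 4.3.3) was fitted to all probe sets, unfiltered, with genotype as its only factor and Benjamini-Hochberg adjustment of p-values. On simulated data for 19458 probe sets, 2% of changes of 1 log2 unit and 54% of changes of 2 were recovered. The simulated noise was normal and independent between arrays, without the array scale and shared deviations of the real arrays.

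The members and lists were chosen with earlier results of these data known. The text names all members, all measured PARP-family and Janus kinase, STAT and IRF genes, called genes of other lists or else those of largest difference without overlap (with none, the gene of largest difference), and the 6 genes of nearest profile. Markers, neighbours on the chromosomes and IFNE were named after their values were seen. Alternatives were median centring, quantile normalization, a filter, a floor, array weights, other variance models, a block for the replicate number and arrays left out.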

Additional observations from a re-analysis of the deposited data

How the results depend on the processing

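The 3 arrays per genotype limit the precision. On the simulated data, whose noise was independent between arrays, 2% of changes of 1 log2 unit were called. How often such a change would be called on the real arrays was not tested. The count of called probe sets, 111 with the values as deposited, was 175 with median centring, 174 with quantile normalization, 184 without the dimmest 30%, 169 with values under 4 set to 4, 396 with a variance trend, 778 with array weights and 7 without both arrays of highest median, and from 24 to 63 with 1 array left out. Called genes of the pathway lists numbered 2 as deposited, 1 with that floor, 4 with a variance trend, 9 with array weights, 0 without both arrays of highest median and 0 to 1 with 1 array left out. With array weights, wild-type array 3 had a weight of 6.96 and the others 0.40 to 1.04.

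With the replicate number as a block, 3 probe sets and 0 genes of the pathway lists were called. Deviations of same-numbered arrays correlated at -0.24, -0.43 and 0.06, so the numbers do not pair the arrays, and the arrays did not all correlate best with their own number.

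With 1 array left out, the median of the mono-ADP-ribosyltransferase list ran from -0.55 to 0.29, that of the polymerases from -0.76 to -0.06, that of the Janus kinase, STAT and IRF list from 0.19 to 0.53, and that of the neighbours on chromosome 3 from -0.26 to 0.23. Small differences changed sign with 1 array left out for PARP3 (-0.042 to 0.50), PARP8 (-0.66 to 0.29), PARP16 (-0.55 to 0.0022), IRF5 (-0.33 to 0.11), KPNA1 (-0.32 to 0.40), HSPBAP1 (-0.36 to 0.82) and DTX1 (-0.44 to 0.23). With array weights PARP3 was at -0.010 and KPNA1 at -0.061, and without both arrays of highest median KPNA1 was at -0.0037. Of the named genes, PARP3, PARP10, PARP15, JAK2, IRF8, IFI44, SOCS3, HSPBAP1 and IFNG had no value without the dimmest 30%. The cause of these shifts was not tested. The 4 members kept their sign in each of the 16 other fits, which their choice fixed for PARP9, DTX3L and PARP12 wherever arrays were left out.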
